A study of Homo sapiens with 4 samples.

Results

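The genes of glucose uptake, glycolysis, the pentose phosphate pathway and pyruvate use were examined after siRNA knockdown of COUP-TFII, a nuclear receptor with no settled ligand that binds DNA and regulates transcription, in PC3, an established line of prostate cancer cells taken from a metastasis in bone. The 36 genes were listed by their step in the pathway, although earlier results of these data were known when they were chosen. A probe set, the group of short probes that measures 1 transcript on the array, belonged to the set where the platform's gene table assigned it to exactly 1 of these genes. This held for 83 of 54675 probe sets, which covered 34 of the 36 genes, and the lactate transporter genes SLC16A1 and SLC16A3 were not analysed here. The 2 arrays of COUP-TFII siRNA and the 2 arrays of control siRNA held total RNA of cells taken 48 h after transfection with 40 nM of siRNA duplex. No treatment, genotype or strain other than the siRNA separated the groups in the labels. Whether the replicates were transfected separately is not stated, so p-values here reflect the spread among these 4 arrays alone, and that spread may be technical. The targeted transcript was not analysed here, and the siRNA labels were not checked against it. RNA came from whole cultures, in which fewer cells of a kind and less RNA per cell cannot be told apart.

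Array medians lay between 31.7 and 32.9 intensity units over all probe sets. The epithelial keratin genes KRT8, KRT18 and KRT19 read 4190.2 or more on every array, but 4 of the 5 epithelial markers passed the test. KRT8 and KRT18 were higher, at 0.16 and 0.13 on the log2 scale, and EPCAM and CD44 were lower, at -0.24 and -0.72, with CD44 at 2532 and 2385 in COUP-TFII siRNA arrays and 4183 and 3914 in control arrays. KLK3, the prostate antigen gene that PC3 cells are known not to express, read at most 25.9. Of the markers of other cell types, 4 leukocyte genes read at most 42.3, and 3 endothelial genes summed to 206 to 263 in COUP-TFII siRNA arrays against 174 to 180.4 in control arrays, with none passing the test. Of 5 fibroblast markers COL1A1 alone passed the test, at 962 and 949.6 in COUP-TFII siRNA arrays and 599 and 540.3 in control arrays, and the list summed to 1092 to 1096 in COUP-TFII siRNA arrays against 677 to 776 in control arrays. As a sign of RNA integrity, the ACTB control probe set at the 3′ end was set over the one at the 5′ end, and this ratio was 1.42 and 1.46 in COUP-TFII siRNA arrays and 1.52 and 1.83 in control arrays, without overlap. The same ratio for GAPDH was 0.994 and 0.986 in COUP-TFII siRNA arrays and 0.957 and 0.986 in control arrays. The part of these differences in the results below was not tested.

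Glucose enters the cell through SLC2A transporters and is trapped by hexokinase. Phosphofructokinase-1 then commits it to glycolysis and is switched on by fructose 2,6-bisphosphate, a signal that the bifunctional PFKFB enzymes make and remove. The lower enzymes of the pathway lead to pyruvate, which lactate dehydrogenase turns into lactate or pyruvate dehydrogenase passes to the mitochondrial citric acid cycle, under the restraint of the PDK kinases. The pentose phosphate pathway branches off at glucose 6-phosphate and supplies NADPH and ribose. Tumour cells often make lactate in the presence of oxygen, and the hypoxia-inducible factor HIF-1 and the growth regulator MYC are known to induce many of these genes.

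COUP-TFII siRNA was followed by higher transcripts of the regulators PFKFB2, PFKFB3 and PFKFB4 and of hexokinase 1. Transcripts of 10 genes were lower, among them PGK1, ENO1, LDHA, LDHB and PDK1. Of these, 6 lost this direction when arrays were centred on the median level of housekeeping genes, whose middle gene differed between the groups. All 10 kept it with centring on the median change of the housekeeping genes, which was added after seeing the data. Among the 34 genes with a value, 5 passed as higher, 10 passed as lower and 19 did not pass (limma, Benjamini-Hochberg adjusted p of 0.05 over all 19775 genes). The 5 include PDK2, which was higher on 1 of its 2 probe sets only and is given no direction below. Of the 10, TKT had another probe set that passed as higher over all probe sets. The rises ranged from 0.26 to 1.48 and the falls from -0.21 to -0.60 on the log2(intensity + 16) scale, on which all fold changes here are given. The members' share of calls was 44.1%, against 23.1% of all genes, but 32 of the 34 lay above the median intensity of all genes, and of the genes above that median 42.2% passed. By direction, 29.4% of members fell, against 10.3% of all genes and 18.9% of those above the median. Likewise 14.7% rose, against 12.8% of all genes and 23.3% of those above the median. The median log2 fold change was -0.12 over the members, 0.01 over all genes and 0.05 over the genes above the median. The groups did not overlap in 27 of the 34 members (79.4%), against 57.5% of all genes and 75.9% of those above the median, so this share was near that of bright genes. COUP-TFII siRNA arrays lay above in 7 (20.6%), against 30.8% of all genes and 42.8% of those above the median, and below in 20 (58.8%), against 26.7% of all genes and 33.1% of those above the median. Among the 19 members that did not pass, 15 had log2 fold changes below 0, and all 19 lay between -0.20 and 0.13. All 15 stood above 0 after centring on the median level of housekeeping genes.

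Centring on the median level of housekeeping genes moved every gene up by 0.36, so that 20 members passed as higher and 0 as lower, and PGAM1 and TKT were among the 20. The middle housekeeping gene was SDHA on both COUP-TFII siRNA arrays and HPRT1 on both control arrays, and HPRT1 itself had a log2 fold change of -0.77. Centring on the median change of the same genes, added after seeing the data, moved all genes by 0.03 and left 5 members higher and 10 lower. When the prior variance was held the same at every intensity, 8.04% of all genes and only PFKFB2 and PDK1 among the members passed. Without control replicate 1, 3 members were higher and 5 lower. Without control replicate 2 the counts were 1 and 4, without COUP-TFII siRNA replicate 1 they were 3 and 9, and without COUP-TFII siRNA replicate 2 they were 4 and 7, while 9.06% to 11.9% of all genes passed in these 4 fits.

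**Figure D1:**
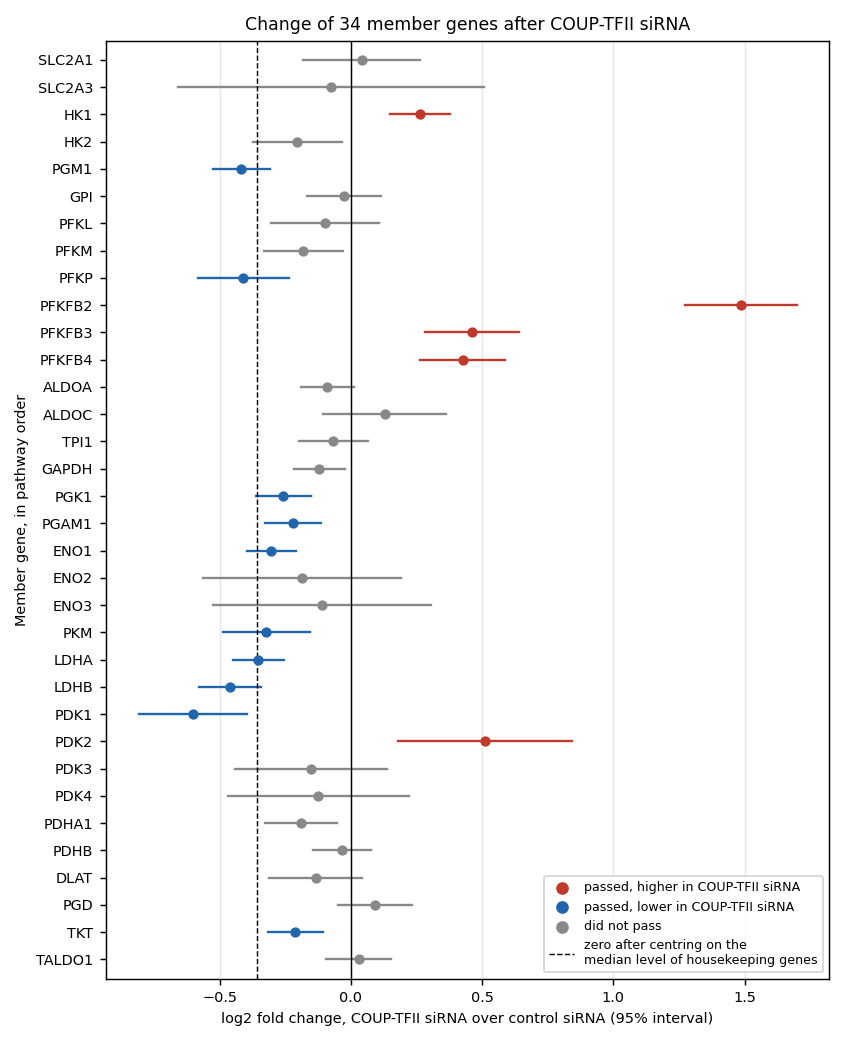
Log2 fold change (COUP-TFII siRNA over control siRNA, log2(intensity + 16) scale) of the 34 measured genes in pathway order, with 95% intervals from limma. The 5 genes that passed as higher are red, the 10 that passed as lower are blue, and the dashed line marks where 0 lies after centring on the median level of housekeeping genes, with 4 of the 10 blue points to its left and 6 to its right.

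**Figure D2:**
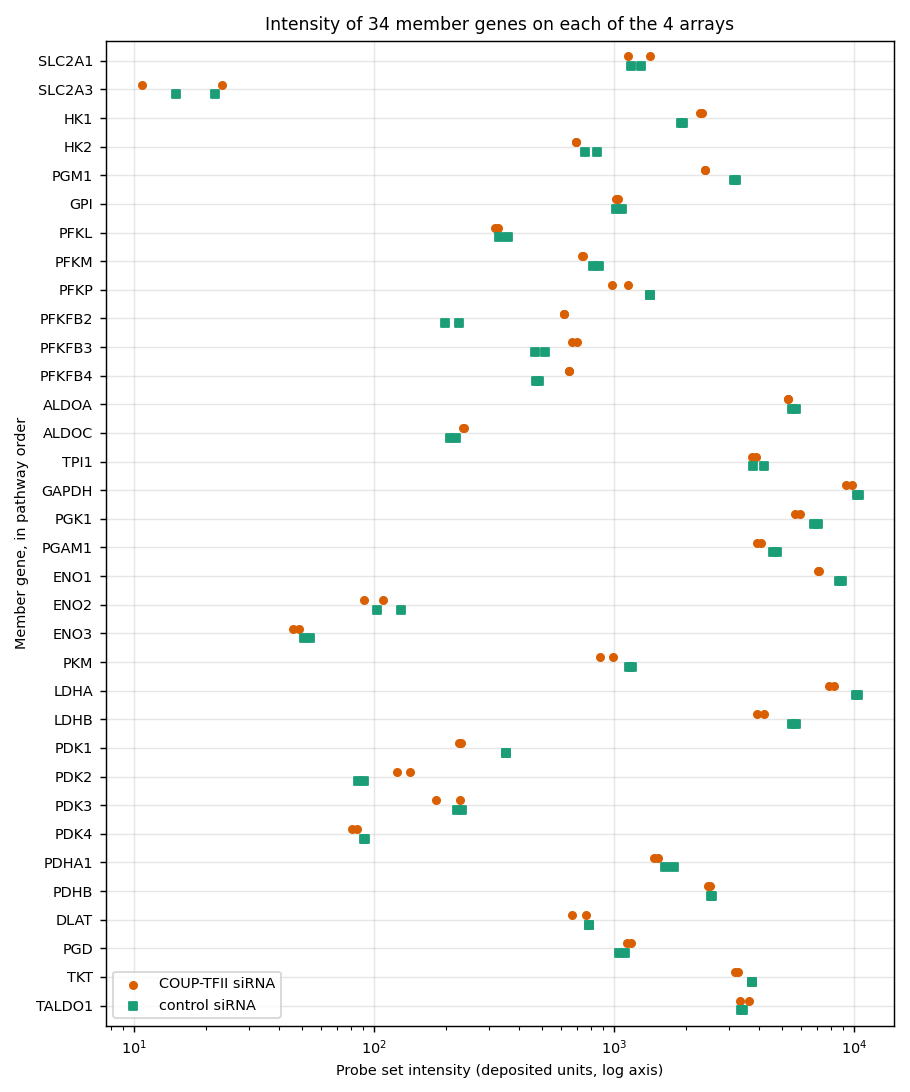
Intensity of each member gene on each array, on a log axis, with the 2 COUP-TFII siRNA arrays (circles) above the 2 control arrays (squares) in each row. PFKFB2 shows the widest gap, and the groups of 27 of the 34 genes do not overlap, a share of 79.4% against 75.9% of all genes above the median intensity.

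The promoters of 4 genes that passed are printed, picked by name from those that hold ACGTG, the core of the hypoxia response element. PGM1, PFKP and PDK2 also passed and hold it, but are not printed. ACGTG also lies within CACGTG, the E-box that MYC binds. Where a gene has several starts, the promoter with the most ACGTG was taken, and the other promoter of LDHA, PDK1 and PFKFB3 held 0. Each promoter is the 250 bases before a transcription start in the RefSeq table (GRCh38.p14), 5′ to 3′ along the gene, with every ACGTG of either strand in capitals. The first is that of LDHA at chr11:18394313-18394562 on the plus strand. That of PGK1 lies at chrX:78103998-78104247 on the plus strand, that of PDK1 at chr2:172555840-172556089 on the plus strand, and that of PFKFB3 at chr10:6202682-6202931 on the plus strand.
LDHA: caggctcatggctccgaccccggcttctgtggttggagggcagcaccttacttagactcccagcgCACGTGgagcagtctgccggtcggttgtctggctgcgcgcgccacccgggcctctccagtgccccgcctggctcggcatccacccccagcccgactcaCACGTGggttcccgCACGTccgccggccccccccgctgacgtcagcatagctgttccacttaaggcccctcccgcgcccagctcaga
PGK1: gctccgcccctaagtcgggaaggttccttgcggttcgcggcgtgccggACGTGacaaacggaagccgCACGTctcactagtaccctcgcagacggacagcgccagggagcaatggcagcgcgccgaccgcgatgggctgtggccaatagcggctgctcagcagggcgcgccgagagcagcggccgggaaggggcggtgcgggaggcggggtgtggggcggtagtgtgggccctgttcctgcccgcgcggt
PDK1: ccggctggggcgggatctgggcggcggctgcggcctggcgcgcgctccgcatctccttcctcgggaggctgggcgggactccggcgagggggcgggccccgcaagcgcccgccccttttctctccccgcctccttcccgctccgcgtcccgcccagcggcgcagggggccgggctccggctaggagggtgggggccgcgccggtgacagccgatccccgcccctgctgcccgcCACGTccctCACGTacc
PFKFB3: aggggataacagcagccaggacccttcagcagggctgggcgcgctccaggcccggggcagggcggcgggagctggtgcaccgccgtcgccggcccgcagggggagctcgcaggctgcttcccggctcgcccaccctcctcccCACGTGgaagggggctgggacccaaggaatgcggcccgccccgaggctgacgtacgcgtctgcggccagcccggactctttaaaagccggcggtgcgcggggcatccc
The first 3 belong to genes that passed as lower, of which PGK1 and LDHA stood above 0 after centring on the median level of housekeeping genes, and the last to a gene that passed as higher. LDHA holds CACGTG at 2 places and PFKFB3 at 1, and PGK1 and PDK1 hold ACGTG without the E-box.

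Over all measured members, 32 of 34 matched the promoter table, with 59 windows since many genes have several starts. ACGTG on either strand was found in 37.3% of these windows and in 18.5% of all 35116 windows of the table. It was in 5 of 17 windows of the genes that fell (29.4%), in 2 of 13 windows of those that rose (15.4%), and in 15 of 29 windows of those that did not pass (51.7%). The other form of the core, GCGTG, was in 33.9% of the members' windows and 32.2% of all windows, and CACGTG in 13.6% and 6.34%. AGGTCA, the half-site that nuclear receptors of the COUP-TF kind bind as repeats, was in 11.9% of the members' windows and 12.1% of all windows. A direct repeat of it with 1 base between was in 0 of the 59 windows and in 6 of all windows. Windows of 1 gene overlap or neighbour each other and are not independent, and a match of letters describes the sequence only.

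At the entry of the pathway, hexokinase 1 was higher and the transporters and hexokinase 2 did not pass. HK1, the hexokinase of most tissues, had intensities of 2281 and 2325 in COUP-TFII siRNA arrays, against 1903 and 1930.4 in control arrays. Both knockdown arrays lay above both controls, at 0.26 ± 0.05 on the log2 scale (SE; limma adjusted p = 0.0051). It did not pass without control replicate 1 or without control replicate 2, and its limma adjusted p ran from 1.41e-06 to 0.142 over the 14 alternatives. HK2, the inducible hexokinase of many tumours, had 692.8 and 693.4 in COUP-TFII siRNA arrays and 847 and 757 in control arrays, without overlap (log2 fold change -0.20 ± 0.07, limma adjusted p = 0.086). Its 2 other probe sets, which read 99.6 or less, had log2 fold changes of -0.65 and -0.68 and did not pass either. HK2 passed as lower with the replicate block, quantile normalization, dim genes left out and the mean of probe sets (-0.51), and stood at 0.16 after centring on the median level of housekeeping genes (limma adjusted p of 0.0133 to 0.416 over the alternatives). SLC2A1, the basal glucose transporter, had 1416 and 1141 in COUP-TFII siRNA arrays and 1175 and 1298 in control arrays, and the groups overlapped. The 95% interval of its log2 fold change ran from -0.18 to 0.26. Its other probe set read 20.2 and 38.4 in COUP-TFII siRNA arrays and 52.4 and 55.3 in control arrays. This was a log2 fold change of -0.65 that did not pass over all probe sets (limma adjusted p = 0.171). With the mean of probe sets SLC2A1 was at -0.31 without a call (limma adjusted p = 0.0515). It passed as higher, at 0.40, after centring on the median level of housekeeping genes (limma adjusted p = 0.00234). SLC2A3, a high-affinity transporter best known from neurons, read at most 23.3 on its representative probe set on every array, near the bottom of the range.

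PGM1, which interconverts glucose 1-phosphate and glucose 6-phosphate and so links glycogen to glycolysis, fell. Its intensities were 2385 and 2380.4 in COUP-TFII siRNA arrays and 3229.7 and 3151 in control arrays. The groups were far apart compared with their spread, with means of 2383 ± 3 and 3190.3 ± 55.7 (SD, n = 2 each), a change of -25.3% (log2 fold change -0.42 ± 0.05, limma adjusted p = 0.000292). It passed with any of the 4 arrays left out, but not after centring on the median level of housekeeping genes or without the intensity trend (limma adjusted p of 4.37e-12 to 0.307 over the alternatives). GPI, the isomerase that makes fructose 6-phosphate, had a log2 fold change of -0.03 with a 95% interval from -0.17 to 0.11.

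Of the phosphofructokinase-1 subunits, PFKP, the platelet type, fell. Its intensities were 1137 and 976 in COUP-TFII siRNA arrays and 1404 and 1405 in control arrays, so the knockdown arrays were lower and lay further apart than the controls. The log2 fold change was -0.41 ± 0.08 (SE; limma adjusted p = 0.00443). It was -0.05 after centring on the median level of housekeeping genes and -0.08 with the mean of its 2 probe sets, the other of which read 24.2 or less. It did not pass without either control array, and the limma adjusted p ran from 7e-07 to 0.785 over the alternatives. PFKM and PFKL, the muscle and liver types, did not pass, with log2 fold changes of -0.18 (limma adjusted p = 0.0844) and -0.10 (limma adjusted p = 0.518). Both knockdown arrays lay below both controls for each of them, and centring on the median level of housekeeping genes put both above 0.

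PFKFB2, PFKFB3 and PFKFB4 rose, also with quantile normalization and after both housekeeping centrings, while PFKFB1, the liver isoform, on the list of other pathway genes, did not pass (0.11, limma adjusted p = 0.762, groups overlapping). PFKFB2, the isoform known from heart, had intensities of 617 and 619.8 in COUP-TFII siRNA arrays and 226 and 196 in control arrays. This was the largest change of the set, 2.93-fold on the ratio of means and 1.48 ± 0.09 as a log2 fold change (SE; limma adjusted p = 1.02e-05). It passed in all 14 alternatives, the only member to do so, with log2 fold changes of 1.39 to 1.58 when 1 array was left out and 0.78 with the mean of its 4 probe sets. Its 3 other probe sets, which read 73.5 or less, had log2 fold changes of 0.27, 0.54 and 0.83 and did not pass over all probe sets (limma adjusted p of 0.0531 to 0.423).

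PFKFB3, the inducible isoform with the highest kinase to phosphatase activity, had 699 and 665 in COUP-TFII siRNA arrays and 516 and 467 in control arrays. PFKFB4, the isoform first described in testis and known to be induced by hypoxia, had 645 and 651 in COUP-TFII siRNA arrays and 486 and 471 in control arrays. For both genes each knockdown array lay above each control array, at 0.46 ± 0.08 for PFKFB3 and 0.43 ± 0.07 for PFKFB4 (SE, log2 fold change; limma adjusted p = 0.00282 and 0.00256). PFKFB3 did not pass without control replicate 2 or without COUP-TFII siRNA replicate 1 (limma adjusted p of 2.76e-06 to 0.0735 over the alternatives). PFKFB4 did not pass without control replicate 2 (4.51e-06 to 0.0646, limma adjusted p). Neither passed without the intensity trend.

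**Figure D3:**
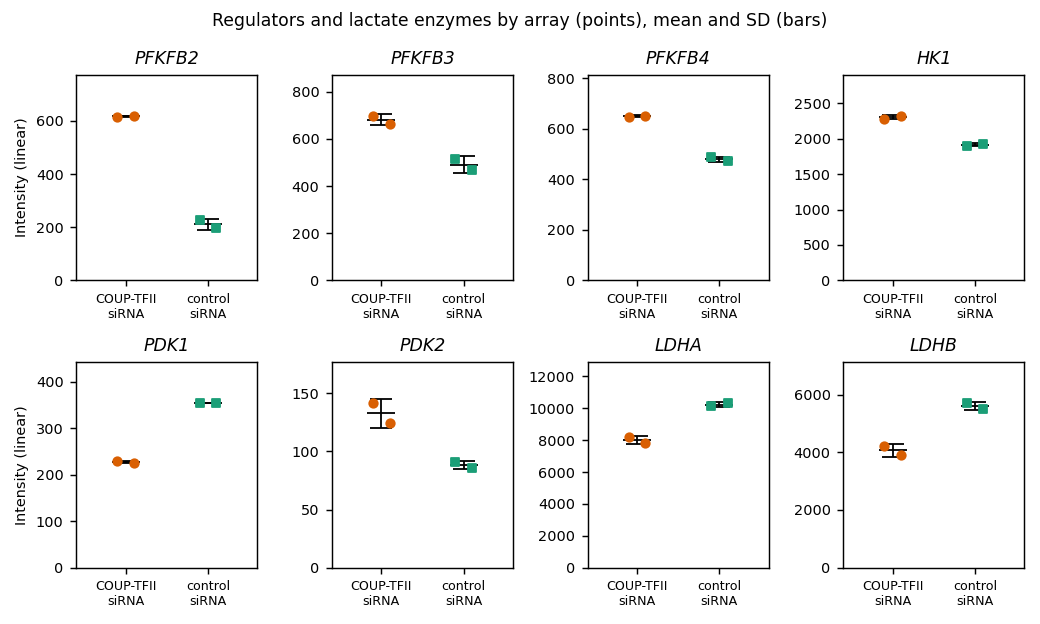
Intensity on a linear axis from 0 of PFKFB2, PFKFB3, PFKFB4, HK1, PDK1, PDK2, LDHA and LDHB, for COUP-TFII siRNA (left) and control siRNA (right), with points for arrays and bars for the mean and SD of n = 2. PFKFB2 lies at 617 and 619.8 on the COUP-TFII siRNA arrays and at 226 and 196 on the control arrays. No panel shows overlap between the groups, but all the genes shown had passed the test. The groups did not overlap in 57.5% of all genes and 75.9% of those above the median intensity. PDK2 is shown on its representative probe set, and its other probe set went the other way.

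In the lower part of glycolysis 4 of 10 members fell and 0 rose, where 18.9% of all genes above the median intensity fell and 23.3% rose, while after centring on the median level of housekeeping genes all 4 had log2 fold changes above 0. The 4 were PGK1, PGAM1, ENO1 and PKM, which act in order from 1,3-bisphosphoglycerate to pyruvate. ENO1, the main enolase, had 7137 and 7042 in COUP-TFII siRNA arrays and 8646 and 8857 in control arrays, -0.30 ± 0.04 on the log2 scale (SE; limma adjusted p = 0.000768). Its groups lay well apart, and 3 of its 4 probe sets passed as lower over all probe sets.

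PGK1, phosphoglycerate kinase, had 5949 and 5659.9 in COUP-TFII siRNA arrays and 6816 and 7063 in control arrays (-0.26 ± 0.05, limma adjusted p = 0.00371). Of its 6 probe sets 4 passed as lower, at log2 fold changes of -0.26 to -0.37. PGAM1, the phosphoglycerate mutase of most tissues, had 3946 and 4078 in COUP-TFII siRNA arrays and 4603 and 4757 in control arrays (-0.22 ± 0.05, limma adjusted p = 0.00822). PKM, which encodes the pyruvate kinases of muscle and of most tumours, had 989 and 873 in COUP-TFII siRNA arrays and 1183 and 1147 in control arrays (-0.32 ± 0.07, limma adjusted p = 0.0118). In all 4 genes both knockdown arrays lay below both controls, and the change of the means was -14.3% to -20.1%.

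ENO1 did not pass without control replicate 2. PGK1 and PKM did not pass without either control array or without COUP-TFII siRNA replicate 2, and PGAM1 did not pass without either control array or without COUP-TFII siRNA replicate 1. The limma adjusted p over all alternatives ran from 1.34e-16 to 0.229 for ENO1, 4.95e-10 to 0.161 for PGK1, 1.23e-05 to 0.198 for PGAM1 and 0.000246 to 0.669 for PKM. With the mean of its 2 probe sets the log2 fold change of PKM was -0.16. Glycolytic genes have near-identical copies in the genome, whose transcripts were not told apart here.

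GAPDH, a step of glycolysis and a common reference gene in expression work, read 9754 and 9247 in COUP-TFII siRNA arrays and 10419 and 10229 in control arrays on its representative probe set. Both knockdown arrays were lower on all 6 GAPDH probe sets, 3 of them array controls that were not tested, yet the log2 fold change of -0.12 ± 0.04 did not pass (limma adjusted p = 0.0827). GAPDH passed as lower with the replicate block and with dim genes left out, and as higher, at 0.24, after centring on the median level of housekeeping genes (limma adjusted p of 0.000226 to 0.448 over the alternatives). ALDOA and TPI1, aldolase and triosephosphate isomerase, also did not pass, at -0.09 and -0.07. ALDOC, the aldolase best known from brain, was at 236 and 235 in COUP-TFII siRNA arrays and 208 and 220.2 in control arrays, a log2 fold change of 0.13 (95% interval -0.11 to 0.36). ENO2 and ENO3, the neuronal and muscle enolases, had mean intensities of 99.5 and 47.3 in COUP-TFII siRNA arrays and 116 and 52.4 in control arrays, and did not pass.

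LDHA and LDHB, which encode the subunits of the main lactate dehydrogenase, fell, although after centring on the median level of housekeeping genes LDHA stood at 0.01 and LDHB at -0.10, both without a call. LDHA, whose subunit favours making lactate, had 8208 and 7817 in COUP-TFII siRNA arrays and 10134 and 10329 in control arrays, a change of the means of -21.7% (-0.35 ± 0.04, limma adjusted p = 0.000431). LDHB, whose subunit is known from tissues that burn lactate, had 4222 and 3916 in COUP-TFII siRNA arrays and 5707 and 5499.9 in control arrays, a change of -27.4% (-0.46 ± 0.05, limma adjusted p = 0.000257). Neither gene's groups overlapped, and both passed with any of the 4 arrays left out. Both LDHB probe sets passed as lower, at -0.36 and -0.46, but both are of a type open to cross-hybridisation. Without the intensity trend neither gene passed, and the limma adjusted p over the alternatives ran up to 0.89 for LDHA and 0.088 for LDHB.

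Among the pyruvate dehydrogenase kinases PDK1 passed as lower, PDK2 had probe sets of opposite sign, and PDK3 and PDK4 did not pass. PDK1, the kinase isoform known as a HIF-1 target, had 229 and 226 in COUP-TFII siRNA arrays and 353.6 and 354.2 in control arrays. This was the deepest fall of the set, -35.6% on the means and -0.60 ± 0.09 as a log2 fold change (SE; limma adjusted p = 0.00146). It passed in 13 of the 14 alternatives, including each array left out, and was at -0.24 (limma adjusted p = 0.0531, the highest of a range from 7.47e-08) after centring on the median level of housekeeping genes. A second PDK1 probe set read 27.5 and 28.7 in COUP-TFII siRNA arrays and 49.6 and 59.7 in control arrays, a log2 fold change of -0.68 that did not pass over all probe sets (limma adjusted p = 0.0875). The third was at -0.07, and its groups overlapped.

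PDK2, the most widely expressed kinase isoform, had 142 and 124 in COUP-TFII siRNA arrays and 90.8 and 85.7 in control arrays on its representative probe set (0.51 ± 0.15, limma adjusted p = 0.0338). Its other probe set was opposite, at 72.2 and 63.9 in COUP-TFII siRNA arrays and 113 and 102 in control arrays, a log2 fold change of -0.56. Tested over all probe sets, neither passed (limma adjusted p = 0.051 and 0.0547). The mean of both was -0.02, and the call was lost with any of the 4 arrays left out (limma adjusted p of 0.000436 to 0.93 over all alternatives), so no direction is given for PDK2. PDK3 and PDK4 did not pass, at log2 fold changes of -0.15 and -0.12.

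The pyruvate dehydrogenase complex itself showed no call at the gene level. PDHA1, the catalytic subunit that the PDK kinases phosphorylate, had 1515 and 1461 in COUP-TFII siRNA arrays and 1767 and 1633 in control arrays. The knockdown arrays were lower without overlap, at -0.19 ± 0.06 (SE; limma adjusted p = 0.0527), and 1 of its 3 probe sets passed as lower. PDHA1 passed as lower with the replicate block, with quantile normalization, with dim genes left out, with the mean of probe sets and with cross-hybridising probe sets allowed, and passed as higher, at 0.17, after centring on the median level of housekeeping genes (limma adjusted p of 0.0171 to 0.335 over all alternatives). PDHB and DLAT, the other E1 subunit and the E2 acetyltransferase, had log2 fold changes of -0.03 (95% interval -0.14 to 0.08) and -0.13 (-0.31 to 0.04).

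In the pentose phosphate pathway TKT, the transketolase of the reversible branch, passed as lower on its representative probe set. It had 3278 and 3196 in COUP-TFII siRNA arrays and 3759 and 3747 in control arrays (-0.21 ± 0.05, limma adjusted p = 0.00957). Another probe set of TKT went the other way, at 134 and 117 in COUP-TFII siRNA arrays and 80.3 and 77.2 in control arrays, and passed as higher over all probe sets (0.58, limma adjusted p = 0.0378). The mean of the 3 probe sets gave 0.06, and centring on the median level of housekeeping genes gave 0.15. TKT did not pass without either control array or without COUP-TFII siRNA replicate 2 (limma adjusted p of 0.00016 to 0.548 over the alternatives). PGD, the dehydrogenase that yields NADPH and ribulose 5-phosphate, and TALDO1, transaldolase, did not pass, at 0.09 (95% interval -0.05 to 0.23) and 0.03 (-0.10 to 0.15).

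Tested probe set by probe set, 5 of the members' 80 tested probe sets passed as higher and 17 as lower, which is 6.25% and 21.2% of them. Of all 54613 probe sets 12.2% passed, 6.51% as higher and 5.67% as lower. No share was computed for bright probe sets alone, although 32 of the 34 member genes lay above the median intensity of all genes. Several probe sets of 1 gene measure the same transcripts and are not independent. Of the 24 members with more than 1 tested probe set, all probe sets had the same sign in 16. Of the 10 such members with a call this held for 6, and the other 4 were PFKP, PKM, PDK2 and TKT. When 1 array was left out, between 0 and 10 member probe sets passed as lower and 1 as higher, with 0 lower both without control replicate 1 and without control replicate 2.

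**Figure D4:**
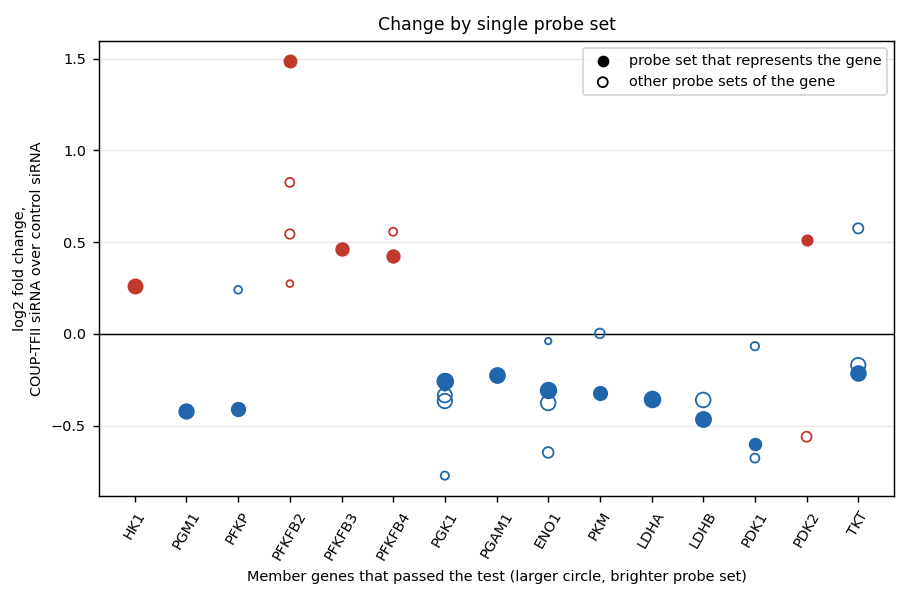
Log2 fold change (COUP-TFII siRNA over control siRNA) of every tested probe set of the 15 members that passed, with the representative probe set filled and larger circles for brighter probe sets. Probe sets on both sides of 0 appear for PFKP, PKM, PDK2 and TKT, and all 4 of PFKFB2 lie above 0; colours give the gene's call without housekeeping centring.

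Other genes of the same pathways came from a list of 60, of which 53 were measured. Of these 8 rose, 6 fell and 39 did not pass, and their median log2 fold change was 0.02. So 26.4% were called, against 23.1% of all genes and 42.2% of those above the median intensity. In the pentose phosphate list 2 of 7 measured genes rose and 3 fell. Of all genes 12.8% rose and 10.3% fell, and of those above the median 23.3% rose and 18.9% fell. Whether so short a list departs from these shares was not tested. PGLS, the lactonase of the oxidative branch, had 1619 and 1666 in COUP-TFII siRNA arrays and 1215 and 1244 in control arrays (0.41 ± 0.06, limma adjusted p = 0.000722). H6PD, which starts a like pathway inside the endoplasmic reticulum, had 229 and 178 in COUP-TFII siRNA arrays and 116 and 114 in control arrays (0.73 ± 0.15, limma adjusted p = 0.00603).

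The 3 that fell were PRPS2, PRPS1 and RPE. PRPS2, which makes the nucleotide precursor phosphoribosyl pyrophosphate, had 773 and 647 in COUP-TFII siRNA arrays and 1259.9 and 1180.3 in control arrays (-0.77 ± 0.09, limma adjusted p = 0.00028). Its relative PRPS1 had 979 and 1012 in COUP-TFII siRNA arrays and 1364 and 1292 in control arrays (-0.41 ± 0.06, limma adjusted p = 0.00129). RPE, the ribulose phosphate epimerase, had 884 and 803 in COUP-TFII siRNA arrays and 1109 and 1048 in control arrays (-0.35 ± 0.07, limma adjusted p = 0.00695), and stood at 0.01 after centring on the median level of housekeeping genes. PGLS, PRPS1 and PRPS2 passed with any of the 4 arrays left out. After that centring PRPS2 kept its call, at -0.41, as the only one of the 6 that fell, and PRPS1 stood at -0.05 without a call (limma adjusted p = 0.511, the highest over its alternatives). H6PD passed only without COUP-TFII siRNA replicate 2 and RPE only without COUP-TFII siRNA replicate 1. With the mean of its probe sets H6PD was at 0.15 and PGLS at 0.23, without a call, and over all alternatives the limma adjusted p ran from 6.36e-08 to 0.56 for H6PD and from 9.81e-05 to 0.908 for RPE.

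Among the remaining genes, FBP1, the gluconeogenic fructose bisphosphatase, had 282 and 272 in COUP-TFII siRNA arrays and 407 and 406 in control arrays (-0.53 ± 0.09, limma adjusted p = 0.00219). PYGL, the liver glycogen phosphorylase, had 1425 and 1313 in COUP-TFII siRNA arrays and 1027 and 992 in control arrays (0.43 ± 0.06, limma adjusted p = 0.00125). These groups lay apart in each gene, and FBP1 and PYGL lost their calls only without control replicate 2 among the 4 fits with 1 array left out. MINPP1, a phosphatase of inositol phosphates and 2,3-bisphosphoglycerate, was at -0.38 ± 0.07 (limma adjusted p = 0.00436). SLC2A13, a myo-inositol transporter of the glucose transporter family, was at 0.64 ± 0.15 (limma adjusted p = 0.0148), and LDHC, the testis lactate dehydrogenase, at -0.84 ± 0.20 near the bottom of the range (limma adjusted p = 0.0152). MINPP1 did not pass without either control array, and SLC2A13 and LDHC did not pass with any of the 4 arrays left out. After centring on the median level of housekeeping genes FBP1 was at -0.17, MINPP1 at -0.02 and LDHC at -0.48, all without a call, and with the mean of its probe sets SLC2A13 was at 0.08. LDHD, the D-lactate dehydrogenase, did not pass (0.16, limma adjusted p = 0.701, groups overlapping). The other 4 that passed, named after their values were seen, were MPC1, a subunit of the mitochondrial pyruvate carrier (0.34), PGM2 (0.30), TXNIP, an inhibitor of glucose uptake (0.24), and the pyruvate dehydrogenase phosphatase gene PDP1 (0.19), all higher. TXNIP and PDP1 lost their calls with any of the 4 arrays left out, MPC1 without either control array, and PGM2 without either control array or without COUP-TFII siRNA replicate 1.

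**Figure D5:**
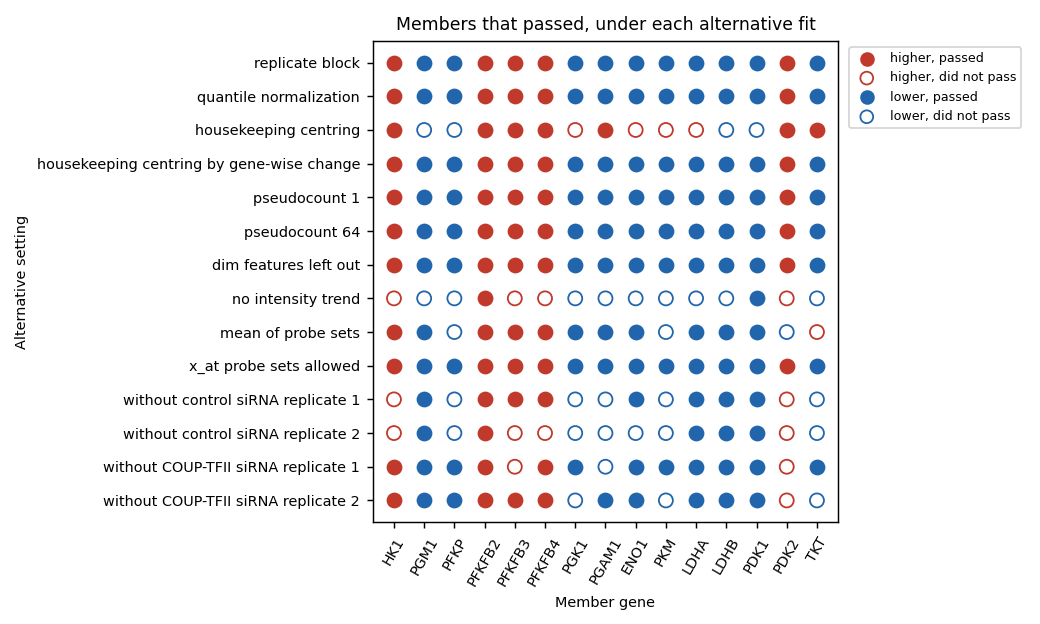
Direction (red above 0, blue below 0) and call (filled where the limma adjusted p was under 0.05) of the 15 members that passed, under each of the 14 alternative fits. PFKFB2 is filled in every row, and the row of centring on the median level of housekeeping genes holds 6 blue members of the main result turned red.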

How the data were processed

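Per the labels' protocols, Trizol-extracted total RNA was biotin-labelled and read on Affymetrix arrays with 1 colour. The values the authors deposited are intensities per probe set, linear and between 0.61 and 15890.4. How they were summarised, background-corrected and normalized is not stated in the labels. They carry no detection calls, and 31.4% to 33.0% lay below 16. The number of arrays limits the precision. Intensities were used as log2(value + 16), which understates changes of dim genes, with no further scaling.

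The probe table named 1 gene for 41091 probe sets other than the 62 controls, several for 1801 and none for 11721. Symbols followed a RefSeq table of GRCh38.p14. Each gene was represented by its brightest single-gene probe set, avoiding those marked _x_at (open to cross-hybridisation) where another existed. Groups were compared with limma 3.58.1 in R 4.3.3 (lmFit, eBayes with intensity trend, 2 residual degrees of freedom, 8.85 after moderation), Benjamini-Hochberg adjusted over all 19775 genes, without a replicate block. The test was checked on simulated data, which cannot show whether these 4 arrays meet its assumptions. Figures were drawn with matplotlib 3.10.9.

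The members and lists were chosen with earlier results of these data known. All members were to be accounted for, with values by array for those that passed, and of the other pathway genes the 10 with the largest change among those that passed were named. Alternatives were the replicate block, quantile normalization, housekeeping centring, pseudocounts of 1 and 64, dim genes left out, no intensity trend, probe set choice, a threshold of 0.01 and each array left out.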

Additional observations from a re-analysis of the deposited data

How the results depend on the processing

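The replicate numbers of the 2 groups mark no shared origin in the labels, and over all genes the deviations of same-numbered arrays from their group means correlated at 0.018. With the replicate number as a block, 5 members were higher and 13 lower, and GAPDH, HK2 and PDHA1 were added as lower. The counts of members were within 1.5 times of 5 higher and 10 lower with quantile normalization, both other pseudocounts, dim genes left out, both other probe set choices, the threshold of 0.01 and centring on the median change of housekeeping genes. They were 1 higher and 1 lower without the intensity trend, and 20 higher and 0 lower after centring on the median level of housekeeping genes. Other pathway genes (8 higher and 6 lower) were 28 higher and 1 lower with that centring, 1 and 3 without the trend, 2 higher with the mean of probe sets and 4 higher at a threshold of 0.01. All genes (2524 higher and 2039 lower) were 8754 and 781 with that centring, so that 91.8% of calls were higher against 55.3%, 767 and 822 without the trend, 1631 higher with the mean of probe sets, and 1457 and 1324 at a threshold of 0.01. Member probe sets (5 higher and 17 lower) were 36 and 0 with that centring, 8 and 28 with dim probe sets left out, 1 and 0 without the trend, and 3 and 8 at a threshold of 0.01. With 1 array left out, the counts ranged from 1 to 4 members higher and 4 to 9 lower, 1 to 5 other pathway genes higher and 2 to 5 lower, 865 to 1231 of all genes higher and 875 to 1373 lower, and 1 member probe set higher in each fit and 0 to 10 lower.

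That centring adds 0.36 to every gene, which alone turned these log2 fold changes to above 0: SLC2A3 (0.28), HK2 (0.16), GPI (0.33), PFKL (0.26), PFKM (0.18), ALDOA (0.27), TPI1 (0.29), GAPDH (0.24), PGK1 (0.10), PGAM1 (0.14), ENO1 (0.056), ENO2 (0.17), ENO3 (0.25), PKM (0.037), LDHA (0.0070), PDK3 (0.21), PDK4 (0.24), PDHA1 (0.17), PDHB (0.33), DLAT (0.22), TKT (0.15), RPE (0.010). With the mean of probe sets the sign turned for SLC2A1 (-0.31), SLC2A3 (0.10), PDK2 (-0.025) and TKT (0.064), and with centring on the median change for GPI (0.0039). Leaving out 1 array turned the sign of 6 members that had not passed: SLC2A1, at -0.11 to 0.19 over these fits, SLC2A3 (-0.35 to 0.20), GPI (-0.069 to 0.014), TPI1 (-0.14 to 0.0062), PDK3 (-0.31 to 0.0018) and TALDO1 (-0.036 to 0.094). The cause of the lost calls was not tested. The 95% intervals of the dim members SLC2A3 (-0.66 to 0.51) and ENO3 (-0.52 to 0.30) were wide, so changes within them could not be told from no change.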
